A study of Mus musculus with 11 samples.

Results

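The 10 genes described here mark the surface ectoderm of the limb bud and were measured in mouse forelimb buds collected at E10.5. They were chosen by name: the adhesion genes Epcam and Cdh1, the keratin genes Krt5, Krt8, Krt14, Krt15 and Krt18, the transcription factor genes Trp63 and Grhl2, and the splicing factor gene Esrp1. All 10 are among the 47517 gene names of the deposited count table, and all 10 are among the 15821 that had enough reads to be tested. The study compared Gmnn f/f; Prx-Cre embryos, called mutants, with Gmnn +/f; Prx-Cre littermates, called controls. Both genotypes are on a C57BL/6 background and carry the Cre transgene and at least 1 floxed allele of Gmnn, so the controls are heterozygous for the conditional allele. Prx-Cre expresses Cre recombinase in limb bud mesenchyme, and Gmnn encodes Geminin, which restrains DNA replication licensing. The 5 control and 6 mutant libraries come from 4 litters. Litter A gave controls 1 and 2 and mutants 1 and 2, litter B gave control 3 and mutant 6, litter C gave control 4 and mutant 5, and litter D gave control 5 and mutants 3 and 4.

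The early limb bud is a core of mesenchyme under a thin epithelial jacket, the surface ectoderm, whose distal rim thickens into the apical ectodermal ridge. Epithelial cells hold together through E-cadherin and Epcam, and build a cytoskeleton from paired keratins, a type II partner (Krt5, Krt8) with a type I partner (Krt14, Krt15, Krt18). Krt8 and Krt18 are typical of simple epithelia, which include the mesothelium that lines the body cavity and the gut endoderm, and Krt5, Krt14 and Krt15 are typical of the basal layer of stratified skin. In a whole bud the level of these genes serves as a measure of how much ectoderm a sample holds. In such bulk samples, fewer ectoderm cells and less RNA per cell cannot be told apart.

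Promoter sequences are shown for the 4 members with a usable entry in the RefSeq table. They fall on both sides of a contrast described below: Krt8 and Krt18 moved together over the libraries, more closely than either did with Krt5 or Epcam. Each is the stretch from 250 bases before to 50 bases after the RefSeq start, in build GRCm38.p6 (mm10), 5′ to 3′ on the gene's own strand. Krt8 is at chr15:102004293-102004592 on the minus strand, Krt18 at chr15:102027966-102028265 on the plus strand, Krt5 at chr15:101712856-101713155 on the minus strand and Epcam at chr17:87635729-87636028 on the plus strand. Capitals mark matches, on either strand, to CAGGTG, which is the E-box bound by Snail and Zeb repressors. They also mark GGGCGG, known as the GC box. A motif of the type bound by Tfap2 factors was searched as GCCNNNGGC. The last motif marked, the TATA box, was searched as TATAAA.
Krt8: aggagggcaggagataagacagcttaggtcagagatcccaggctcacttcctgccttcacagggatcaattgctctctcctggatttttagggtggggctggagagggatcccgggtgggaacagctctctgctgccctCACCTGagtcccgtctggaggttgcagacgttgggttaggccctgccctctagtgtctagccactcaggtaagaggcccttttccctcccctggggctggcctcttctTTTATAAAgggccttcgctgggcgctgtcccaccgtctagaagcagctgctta
Krt18: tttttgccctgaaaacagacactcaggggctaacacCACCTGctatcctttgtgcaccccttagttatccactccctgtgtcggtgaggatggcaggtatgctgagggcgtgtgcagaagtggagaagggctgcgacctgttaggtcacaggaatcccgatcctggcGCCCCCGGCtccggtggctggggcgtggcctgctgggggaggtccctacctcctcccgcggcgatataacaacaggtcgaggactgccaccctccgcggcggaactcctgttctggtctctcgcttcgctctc
Krt5: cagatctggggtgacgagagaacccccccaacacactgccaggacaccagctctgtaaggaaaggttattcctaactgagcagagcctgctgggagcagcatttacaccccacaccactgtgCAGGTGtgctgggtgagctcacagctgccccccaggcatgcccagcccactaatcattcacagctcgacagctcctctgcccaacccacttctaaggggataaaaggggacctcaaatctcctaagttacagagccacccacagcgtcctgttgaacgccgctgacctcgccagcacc
Epcam: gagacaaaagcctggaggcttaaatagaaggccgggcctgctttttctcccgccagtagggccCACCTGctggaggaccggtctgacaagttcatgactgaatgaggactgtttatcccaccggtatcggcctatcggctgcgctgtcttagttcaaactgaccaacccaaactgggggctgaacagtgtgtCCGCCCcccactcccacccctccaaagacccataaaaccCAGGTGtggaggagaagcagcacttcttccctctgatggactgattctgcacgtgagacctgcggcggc
All 4 windows hold CAGGTG, which stands in 20.2% of the 32851 promoter windows of the same length in the RefSeq table. Epcam has 2 such matches, and the other 3 genes have 1 each. The GC box is in the Epcam window only (35.7% of all windows) and the Tfap2-type motif in the Krt18 window only (16.6%). TATAAA is in the Krt8 window only (13.6%), where its matches on both strands overlap. They begin at positions -3 and -1 and so lie over the RefSeq start itself. Only the exact letters were searched, so variants of the TATA box are not marked. The grainyhead-type motif AACCNGTT (AACNGGTT on the other strand, 2.09% of all windows) is in none of the 4. A match is a description of the letters, not of a bound site.

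Gmnn itself, on chromosome 13, ran from 139 to 239 CPM (the usual depth-scaled read count, here after TMM scaling of library size) in controls and from 99.5 to 138 CPM in mutants, and its groups did not overlap. Its log2 fold change, mutant over control, was -0.67 (SE 0.10, adjusted p 0.0291) by the quasi-likelihood test of edgeR, in a model with litter and genotype that is used throughout. The call was lost in 8 of the 11 fits that omit a library (adjusted p up to 0.139) and in 12 of 24 alternatives in all, while the log2 fold change stayed between -1.04 and -0.57. Total counts were 14721181 to 19733288 per library. Over all 15821 genes, 345 (2.18%) passed an adjusted p of 0.05, with 111 higher and 234 lower in mutants, and the median log2 fold change was 0.00. The count rests on single libraries: with any 1 of 9 libraries removed it was 1 to 15, without mutant 2 it was 279 and without control 5 it was 850. The labels name embryos by litter, and each library is taken as 1 embryo.

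All 10 genes were detected in all 11 libraries. Together they held 3207 to 6202 reads in controls and 2861 to 4933 in mutants, or 0.0183% to 0.0329% of the reads of a library. Scaled for exon length (RPKM, CPM per kilobase), Krt18 was the most abundant, at 56.4 ± 18.2 (SD, n = 11), and it lay above Krt5 in all 11 libraries. Krt5 (16.6 ± 5.46 RPKM), Epcam (15.5 ± 3.18 RPKM) and Krt8 (15.4 ± 7.98 RPKM) followed and did not differ beyond their spread. Krt14 stood at 9.03 ± 6.68 RPKM and was above Cdh1, the next gene, in all 11 libraries. Cdh1 (3.74 ± 1.28 RPKM) and Trp63 (3.55 ± 0.98 RPKM) were alike within their spread. Krt15 (2.31 ± 1.61 RPKM), Esrp1 (2.08 ± 0.63 RPKM) and Grhl2 (1.28 ± 0.37 RPKM) were the lowest. For scale, the mesenchyme genes Vim and Prrx1 stood at 62.99 and 22.7 RPKM. Of the members, only Krt18 had a mean above that of Prrx1.

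Between genotypes, no member passed the threshold, against 2.18% of all genes (0.702% higher and 1.48% lower). The fitted log2 fold change was below 0 for 8 of the 10 genes (49.3% of all genes), from -0.87 in Krt15 to 0.12 in Krt5, with a median of -0.20. That median was -0.36 without control 1 and -0.06 without control 4 or mutant 5, the extremes of the 11 such fits. It was -0.66, with Epcam and Krt5 also below 0, when an index of transcripts with long runs of T, described with Grhl2, was added as a covariate. That index is largely confounded with genotype, so the shift is poorly determined. At an unadjusted p under 0.05 there was 1 member, Krt15, where 11.5% of all genes were lower at that level and 9.84% higher. DESeq2 (7.55% of all genes called) and limma-voom (2.77%) also called 0 of the 10. edgeR with no filter on low counts called 3 members, all lower (3.3% of all genes were lower there): Krt8 (adjusted p 0.0058), Krt14 (0.0228) and Krt15 (0.00198). For no member were the CPM ranges of the 2 genotypes apart, as they were for 1.3% of all genes with lower and 1.29% with higher values in mutants. Summed over the members, the level was 179.4, 319.3, 321.2, 322.8 and 256.9 CPM in controls 1 to 5. In mutants it ran from 195.5 to 326.3 CPM with a median of 231.2 CPM. The group means were 279.9 ± 62.7 CPM (SD, n = 5) and 246.3 ± 49.3 CPM (SD, n = 6), and the ranges overlapped almost completely. Both the lowest control and the highest mutant were from litter A. Krt8 and Krt18 weighed heavily on this sum, at 16.7 and 46.2 CPM in control 1 and 67.3 and 131.0 CPM in control 2. The gap in the sum between controls 1 and 2 lay mostly in these keratins.

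**Figure D1:**
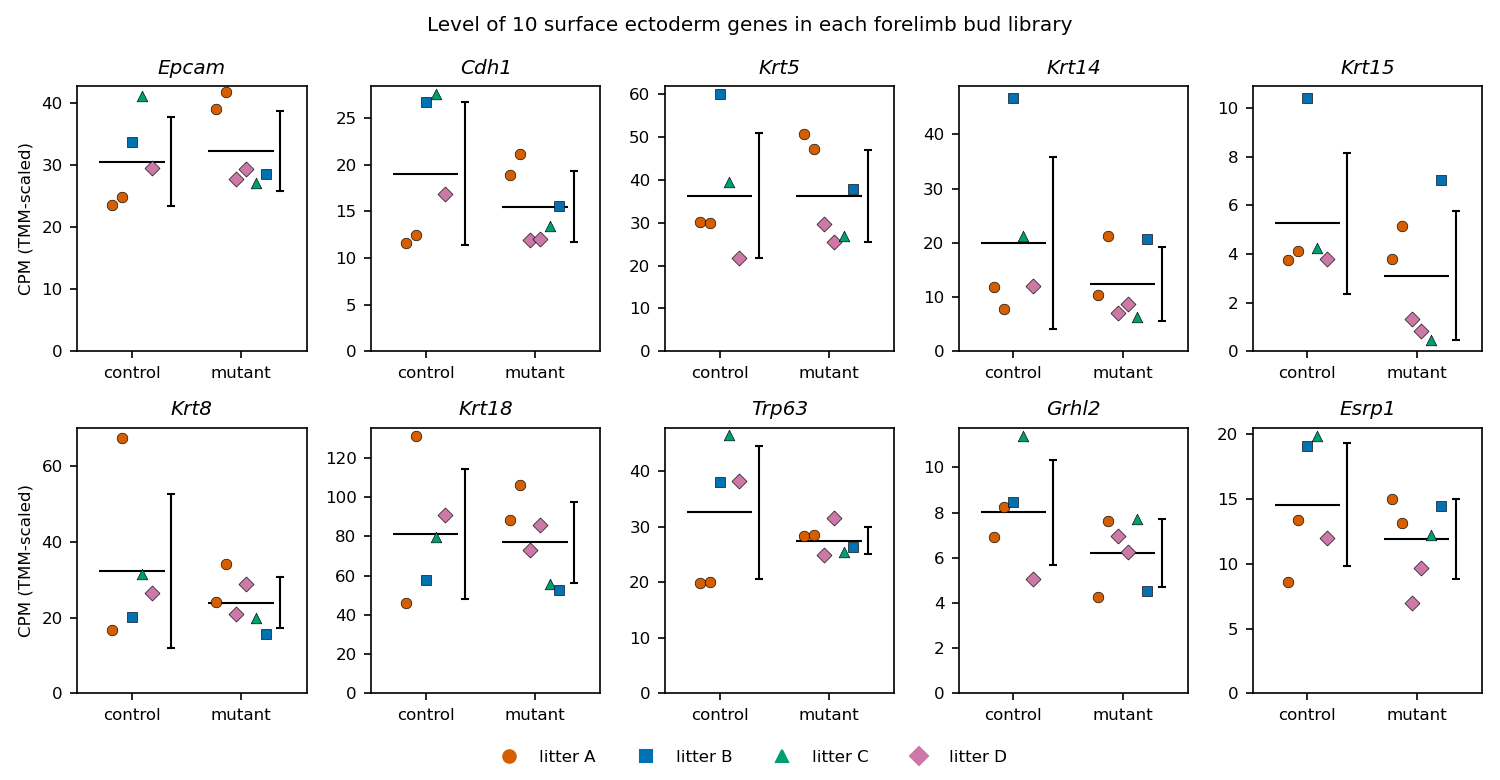
Level of each of the 10 genes (y axis, TMM-scaled CPM, from 0) in the 5 control and 6 mutant libraries, with marker and colour giving the litter, the horizontal line the group mean and the bar 1 SD. The groups overlap for all 10 genes. For Epcam and Cdh1 the lowest controls and the highest mutants are those of litter A (circles). For Krt5 this holds for the mutants only, and for Trp63 for the controls only.

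The 2 adhesion genes had their lowest control values in litter A. Epcam, on chromosome 17 (87635979 to 87651106, in mm10 coordinates of the deposited table, as for all genes below), encodes a cell surface glycoprotein of epithelia. It stood at 23.5, 25.0, 33.7, 41.2 and 29.6 CPM in controls 1 to 5, and in mutants it ran from 27.2 to 41.9 CPM with a median of 29.0 CPM. The 2 highest mutants, at 39.2 and 41.9 CPM, were those of litter A, whose controls were the 2 lowest of the 5. The log2 fold change over all litters was 0.11 (SE 0.17, 95% interval -0.25 to 0.47, edgeR adjusted p 0.76).

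Cdh1, on chromosome 8 (106603351 to 106670246), encodes E-cadherin, the adhesion molecule of epithelial adherens junctions. Controls 1 to 5 had 11.6, 12.4, 26.7, 27.6 and 16.8 CPM, and mutants had 12.0 to 21.2 CPM with a median of 14.5 CPM. Controls 3 and 4 lay above every mutant, while control 1 lay below every mutant and control 2 just above the lowest. The log2 fold change was -0.19 (SE 0.23, 95% interval -0.70 to 0.31, edgeR adjusted p 0.68). For both adhesion genes the 2 libraries of 1 litter and genotype were close: controls 1 and 2 differed by 0.08 in Epcam and 0.09 in Cdh1 on the log2 scale, mutants 1 and 2 by 0.10 and 0.17, and mutants 3 and 4 by 0.08 and 0.01.

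Among the basal keratins, control 3 of litter B was the highest library for each gene. Krt5, on chromosome 15 (101707070 to 101712891), is the type II keratin of basal epidermis. It had 30.2, 29.9, 59.9, 39.5 and 21.9 CPM in controls 1 to 5, and 25.4 to 50.7 CPM in mutants with a median of 33.7 CPM. Its group means were the same to 3 digits, 36.3 ± 14.6 CPM (SD, n = 5) and 36.3 ± 10.7 CPM (SD, n = 6), and its log2 fold change was 0.12 (SE 0.19, edgeR adjusted p 0.77).

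Krt14, on chromosome 11 (100203162 to 100207548), is the type I partner of Krt5. Controls 1 to 5 had 11.9, 7.88, 46.8, 21.3 and 12.1 CPM, and mutants had 6.35 to 21.3 CPM with a median of 9.61 CPM. Control 3 was the highest library, and 2 of the 6 mutants lay below every control. The log2 fold change was -0.44 (SE 0.33, 95% interval -1.16 to 0.27, edgeR adjusted p 0.474).

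Krt15, 67.2 kb from Krt14 on chromosome 11 (100131758 to 100135928), is another type I keratin of the basal layer. It had the widest range of the members, 21.8-fold between control 3 and mutant 5. Controls 1 to 5 had 3.75, 4.12, 10.4, 4.24 and 3.78 CPM, so that 4 of the 5 were nearly equal. Mutants fell into those of litters A and B, with 3.82, 5.16 and 7.06 CPM in mutants 1, 2 and 6, and those of litters C and D, with 1.34, 0.832 and 0.478 CPM in mutants 3, 4 and 5. The latter 3 rest on 20, 14 and 7 reads. The fold change was 0.548 of the control level (log2 -0.87, SE 0.37, 95% interval -1.67 to -0.06, edgeR p 0.0366, adjusted p 0.205), so it did not pass the threshold.

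The simple keratins followed another order of libraries. Krt8 and Krt18 lie 23.9 kb apart on chromosome 15 (101996711 to 102004342 and 102028216 to 102032026), on opposite strands. Krt8 had 16.7, 67.3, 20.1, 31.5 and 26.6 CPM in controls 1 to 5, and 15.8 to 34.3 CPM in mutants with a median of 22.5 CPM. Krt18 had 46.2, 131.0, 58.0, 79.8 and 91.0 CPM in the same controls, and 52.8 to 106 CPM in mutants with a median of 79.5 CPM. Control 2 was the highest library for both genes and control 1, its littermate of the same genotype, was the lowest control for both. The log2 fold changes were -0.42 (SE 0.28, edgeR adjusted p 0.42) for Krt8 and -0.12 (SE 0.21, edgeR adjusted p 0.793) for Krt18. Without control 2 they were -0.03 and 0.08, with control 1, the lowest control for both genes, as the only control of litter A. Without all of litter A they were -0.34 and -0.27, so the fit depended on which libraries of that litter were kept.

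Controls 1 and 2 differed by 2.01 in Krt8 and 1.5 in Krt18 on the log2 scale. In Epcam, Cdh1, Krt5, Krt15 and Trp63 they differed by no more than 0.13, and in Krt14 by -0.58, with the lower level in control 2. Esrp1 (0.62) and Grhl2 (0.24) were higher in control 2, as Krt8 and Krt18 were. Markers of mesothelium, an epithelium that also makes simple keratins, were highest in control 2 as well. Their summed level over 9 genes was 147.8 CPM there, and 67.4 to 84.2 CPM in the other 4 controls and 60.8 to 92.5 CPM in mutants. Within that list, Upk3b stood at 38.9 CPM in control 2 against 12.6 CPM in control 1, Wt1 at 17.1 against 8.95 CPM, Podxl at 31.6 against 14.1 CPM and Tcf21 at 17.9 against 0.671 CPM. Tbx18, the most abundant gene of the list, was at 22.5 and 25.8 CPM, and the defining marker Msln was at 0 in both. Upk3b, Wt1 and Tcf21 were named after their values were seen. The part of mesothelium in the Krt8 and Krt18 levels was not tested.

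**Figure D2:**
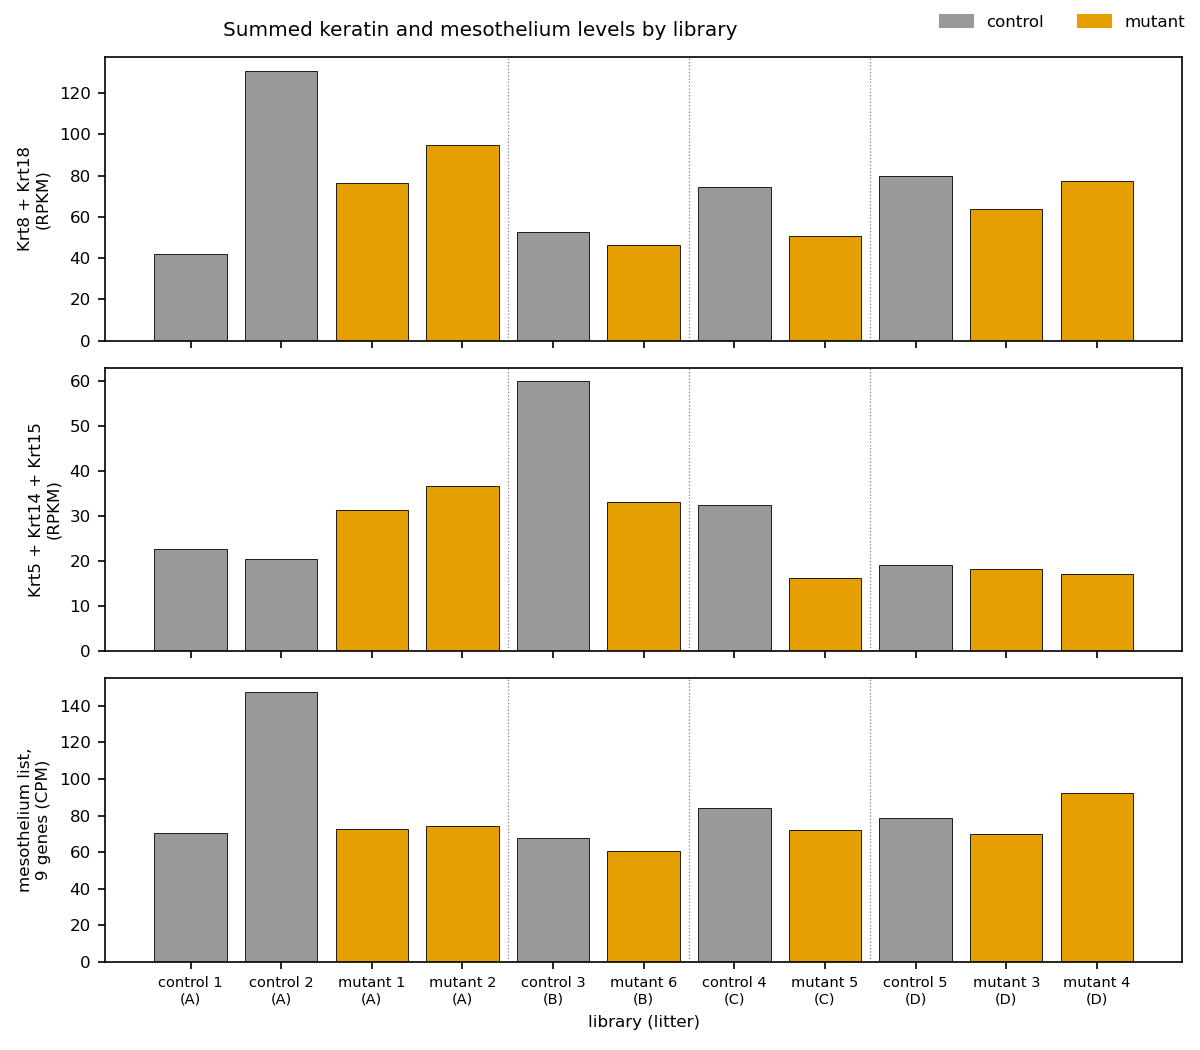
Summed level per library (bars, y axes from 0) of Krt8 and Krt18 in RPKM, of Krt5, Krt14 and Krt15 in RPKM, and of the 9 mesothelium genes in CPM, with libraries ordered by litter and coloured by genotype. Control 2 has the highest bar for Krt8 and Krt18, at 131 RPKM, and for mesothelium, at 147.8 CPM, and control 3 for Krt5, Krt14 and Krt15, at 59.9 RPKM.

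The balance of the keratins varied more between libraries than between genotypes. Krt8 and Krt18 made up 46.7% to 86.5% of the length-scaled level of the 5 keratins in controls and 58.4% to 81.9% in mutants. The ratio of simple to basal keratins was 3.12 ± 2.19 (SD, n = 5) in controls and 2.94 ± 1.05 (SD, n = 6) in mutants. It was lowest in the libraries of litter B, at 0.877 in control 3 and 1.41 in mutant 6, and highest in control 2, at 6.39. Krt18 was 2.51 to 4.73 times as abundant as Krt8 per length.

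Among the regulators of the epithelial state, Trp63 varied least within mutants. Trp63, on chromosome 16 (25683763 to 25892102), encodes p63, the transcription factor on which stratified epithelia and limb outgrowth depend. It had 19.97, 20.08, 38.2, 46.5 and 38.3 CPM in controls 1 to 5. Mutants were tightly grouped, from 25.0 to 31.5 CPM with a median of 27.4 CPM, and all 6 lay between the controls of litter A and those of the other litters. The coefficient of variation was 36.7% in controls and 8.82% in mutants, and the log2 fold change was -0.19 (SE 0.18, edgeR adjusted p 0.58).

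Grhl2, on chromosome 15 (37233036 to 37363569), encodes a grainyhead-like factor that activates Cdh1 and other junction genes. Controls 1 to 5 had 6.94, 8.24, 8.45, 11.4 and 5.05 CPM, and mutants had 4.28 to 7.72 CPM with a median of 6.61 CPM. The log2 fold change was -0.33 (SE 0.20, 95% interval -0.77 to 0.11, edgeR adjusted p 0.376). Grhl2 and Epcam are the members with the longest runs of T in their transcripts, of 24 and 20 bases. The mean log2 CPM of the 959 tested genes with runs of 18 or more, Grhl2 and Epcam among them, is used as an index. It was 4.45 to 4.82 in controls and 4.26 to 4.63 in mutants, so it was lower on average in mutants. Controls 1 to 4 had 4.72 to 4.82, above every mutant, and only control 5, at 4.45, lay among the mutants. The index and genotype are therefore largely confounded. With this index as a covariate the log2 fold change was -0.42 for Grhl2 and -0.36 for Epcam (edgeR adjusted p 0.699 and 0.586).

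Esrp1, on chromosome 4 (11331933 to 11386783), encodes a protein that directs epithelial splice forms, such as that of Fgfr2. It had 8.61, 13.3, 19.0, 19.8 and 12.0 CPM in controls 1 to 5, and 6.99 to 14.98 CPM in mutants with a median of 12.7 CPM. The highest controls were those of litters B and C, as for Cdh1, and the log2 fold change was -0.20 (SE 0.18, edgeR adjusted p 0.568). Counts per gene hold no splice forms, so its activity cannot be read from them.

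By litter, the comparison changed direction. In litter A, 8 of the 10 genes were higher in mutants than in controls, with a median log2 difference of 0.44. In litters B and C all 10 were lower, with medians of -0.54 and -0.68, and in litter D 8 were lower, with a median of -0.32. Over all tested genes the medians were between -0.01 and 0.01 in the 4 litters. The summed level of the members in mutants was 1.22, 0.697, 0.606 and 0.874 times that of controls in litters A to D. In litter A the control level was raised by Krt8 and Krt18 in control 2 (67.3 and 131.0 CPM). Litters B and C hold 1 library of each genotype, so there is no spread within a group there.

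Cdh1 shows the reversal most plainly. Its difference was 0.73 in litter A, -0.77 in litter B, -1.03 in litter C and -0.48 in litter D, on the log2 scale. Trp63 had 0.50, -0.53, -0.87 and -0.44, and Krt14 had 0.62, -1.17, -1.72 and -0.61 in the same order. Epcam had 0.74, -0.24, -0.60 and -0.05. In litter D, Krt5 (0.33) and Grhl2 (0.38) went the other way, being higher in mutants. Krt8 was the only member lower in mutants in all 4 litters (-0.22, -0.34, -0.66 and -0.11), which 13.5% of all genes were. Its sign in litter A rests on control 2, at 67.3 CPM. Control 1 had 16.7 CPM, below mutants 1 and 2 at 24.1 and 34.3 CPM.

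**Figure D3:**
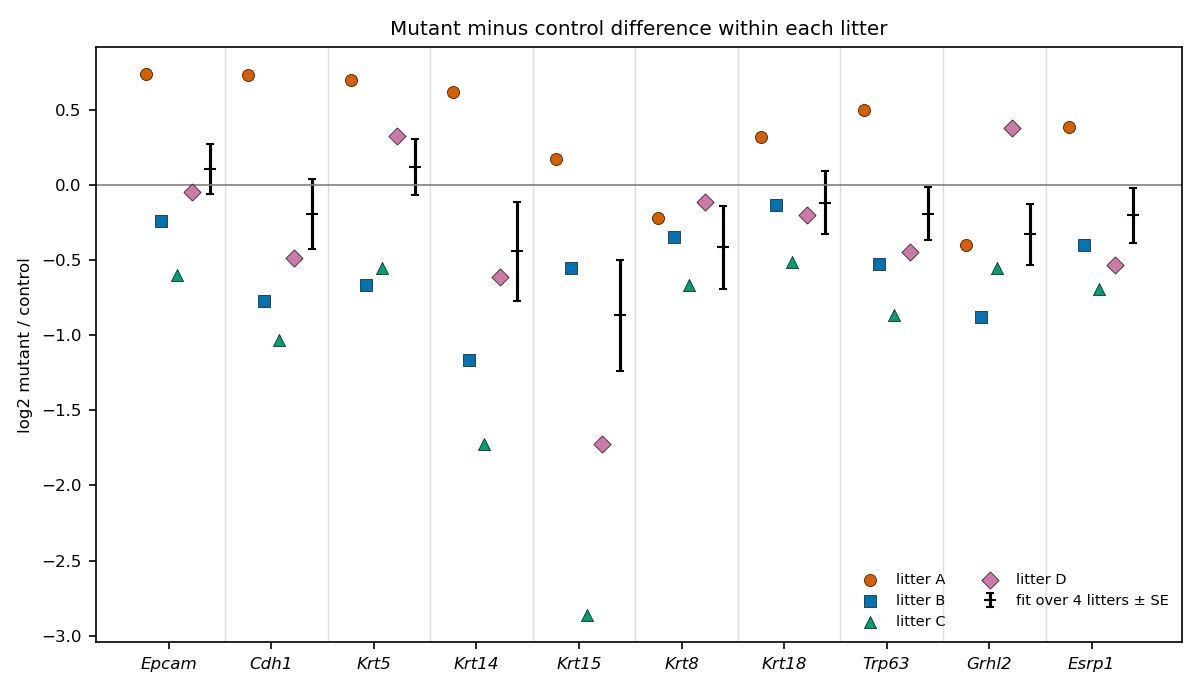
Log2 difference between mutant and control means (y axis) for each gene (x axis) in litters A to D, with the fitted fold change over the 4 litters and its SE in black. Litter A lies above 0 for 8 of the 10 genes, and litters B and C lie below 0 for all 10.

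Whether the genotype difference itself differed between litters was tested with an interaction term, on 3 residual degrees of freedom. Of the 10 members, 6 had an unadjusted p under 0.05, where 3.82% of all genes did: Cdh1 (0.000321), Krt5 (0.000486), Epcam (0.000953), Trp63 (0.00178), Krt15 (0.00213) and Krt14 (0.00906). None passed in edgeR after adjustment over all genes (adjusted p 0.95 for each of the 6), nor in limma-voom (0.968). With no filter on low counts edgeR called these 6, with adjusted p from 4.1e-08 to 0.00442, where it called 1.5% of all genes. DESeq2 called 14 genes in all (0.0885%), of which 2 were members, Krt5 (adjusted p 0.0372) and Cdh1 (adjusted p 0.0378). Krt8 and Krt18 had an interaction p of 0.929 and 0.79 in edgeR. Controls 1 and 2 of litter A differed by 2.01 and 1.5 in these genes on the log2 scale. With so wide a spread these p-values do not show that the difference was alike in all litters. Krt18 had differences of 0.32, -0.13, -0.51 and -0.20 in litters A to D.

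Litter A was the only litter in which most members were higher in mutants, so leaving it out moves their fit down by construction. The members also went together over the libraries, so they are not 10 separate results. Without litter A, all 10 members had a fitted log2 fold change below 0 (50.1% of all genes), from -1.56 in Krt15 to -0.26 in Krt5. In that fit 8 had an unadjusted edgeR p under 0.05, where 7.94% of all genes were lower at that level. Cdh1 was then at -0.75 (SE 0.13), Krt14 at -1.12 (SE 0.19), Trp63 at -0.59 (SE 0.12) and Esrp1 at -0.54 (SE 0.15). None passed after adjustment in edgeR: the smallest adjusted p was 0.0914, for Cdh1 and Krt14, and 9 genes (0.0596%) passed in that fit. Without litter C the median of the members was -0.06 and Cdh1 was at 0.00. The direction for Epcam and Krt5 thus turned when litter A was left out, and that for Cdh1 when litter C was.

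Between litters, whatever the genotype, the members Krt15 (edgeR p 0.00556), Krt14 (p 0.0135) and Krt5 (p 0.0236) had an unadjusted p under 0.05, against 13.5% of all genes. In edgeR 0 of the 10 passed after adjustment (0.0885% of all genes did, smallest adjusted p of a member 0.191). DESeq2 called Krt15 (adjusted p 0.00374), with 3.6% of all genes, and edgeR with no filter on low counts called 7 members (5.41% of all genes). Litter B was the highest for all 3 of these keratins.

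Over the 11 libraries the members differed in how closely their log2 CPM went together. The closest pair was Krt8 and Krt18 (Pearson r 0.906, permutation p 2e-05; Spearman rho 0.909, permutation p 0.00019; r 0.892 without the 2 libraries farthest from the Krt8 median, control 2 and mutant 6). Cdh1 went with Esrp1 (r 0.843, permutation p 0.00096; rho 0.845, permutation p 0.00179) and with Epcam (r 0.836, permutation p 0.00234; rho 0.855, permutation p 0.00161), and Krt14 with Krt15 (r 0.804, permutation p 0.00279; rho 0.836, permutation p 0.00228). Of the 45 pairs, 6 had a Pearson p under 0.05 after Benjamini-Hochberg adjustment, at 0.0009 for Krt8 with Krt18, 0.0216 for Cdh1 with Esrp1 and 0.0251 for the other 2 pairs named. Leaving out the 2 farthest libraries gave r of 0.675, 0.75 and 0.69 for those 3 pairs.

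The grouping that follows was not planned and draws on these same correlations, so its medians describe the split and do not test it. Among Epcam, Cdh1, Krt5, Krt14, Krt15, Trp63 and Esrp1 the median r over 21 pairs was 0.641, from 0.218 to 0.843. Between these 7 genes and Krt8 or Krt18 it was 0.038 over 14 pairs, from -0.207 to 0.32. Grhl2 followed neither set, with r from -0.03 to 0.36. With litter and genotype removed, r was 0.935 for Krt8 with Krt18, 0.782 for Cdh1 with Esrp1, 0.99 for Epcam with Cdh1 and 0.722 for Krt14 with Krt15. The 2 sets were then less apart: the median was 0.811 among the 7 genes and 0.256 between them and Krt8 or Krt18, with Krt18 and Esrp1 at 0.768 and Krt8 and Esrp1 at 0.545. Libraries of 1 litter are not fully independent, so the permutation p-values are too small to the extent that littermates resemble each other.

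**Figure D4:**
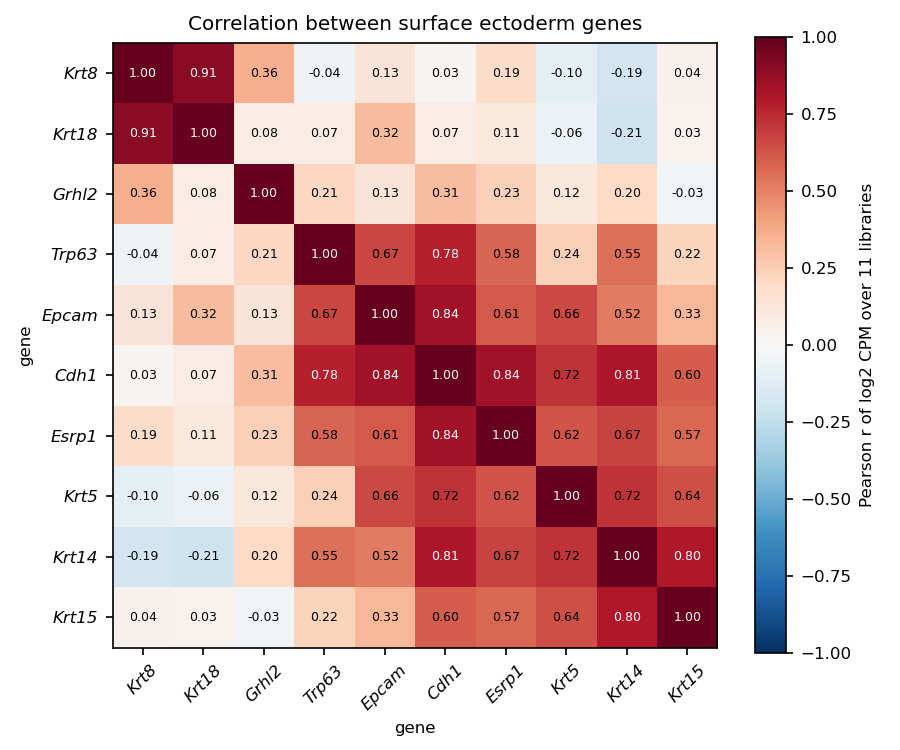
Pearson r of log2 CPM over the 11 libraries for each pair of the 10 genes, on a colour scale from -1 to 1 with the value printed in each cell. Krt8 and Krt18 form a block of their own at 0.91, and Epcam, Cdh1, Esrp1, Krt5, Krt14 and Krt15 form a second, looser block with Trp63.

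Outside the members, and with predicted genes and clone names left out (3 of which had an r above that of Tfap2b), the genes whose log2 CPM followed the mean of the 10 most closely were, by Pearson r over the 11 libraries, Erbb3 (0.907), Phactr1 (0.894), Tgm1 (0.88), Ube2e3 (0.879), Crhr1 (0.876), Heyl (0.87), Ndrg2 (0.847), Sec22b (0.847), Macc1 (0.842) and Tfap2b (0.831). Tgm1 encodes the transglutaminase of the cornified envelope and Tfap2b a transcription factor of ectoderm and neural crest. Among 13246 genes compared, 6.36% had r above 0.5. In the list of epithelial transcription, splicing and trafficking genes 12 of 23 did, in the junction and adhesion list 9 of 21, in the list of other keratins 2 of 6, in the endoderm list 2 of 5, in the mesothelium list 2 of 8, in the ridge list 4 of 19, in the basement membrane list 2 of 10, in the limb mesenchyme list 1 of 16, and in the blood vessel and red cell lists 0 of 9 each. These correlations are descriptions and were chosen for their height.

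Other epithelial genes were examined as 5 lists, and none of their 89 tested genes passed the threshold in edgeR, DESeq2 or limma-voom. At an unadjusted edgeR p under 0.05, 6 were higher and 2 lower, where 9.84% and 11.5% of all genes were. With no filter on low counts edgeR called 7 of the genes on these lists, 4 higher and 3 lower (5.35% of all genes), and without control 1 it called 1 ridge gene, lower. Of 6 other keratins tested, 4 had a fitted fold change above 0 and 2 below, with a median of 0.05. Krt19, a simple type I keratin, stood at 48.0 CPM in controls and 38.5 CPM in mutants on average (log2 fold change -0.40, SE 0.24, edgeR adjusted p 0.363), and Krt7 at 30.5 and 26.9 CPM (-0.24, SE 0.19, edgeR adjusted p 0.516). Krt6b and Krt16, keratins of hair and stressed epidermis, had 0 reads in all 11 libraries. Among 22 junction and adhesion genes the median was -0.06, with 10 above and 12 below 0. Cldn6, the most abundant (69.4 and 76.8 CPM), had a log2 fold change of 0.08 (SE 0.20), and F11r of -0.06 (SE 0.11).

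For 26 epithelial transcription, splicing and trafficking genes the median was -0.02, with 13 above and 13 below 0. Spint2, a membrane protease inhibitor, was at -0.08 (SE 0.17) and Tfap2b at -0.40 (SE 0.24). The 12 genes of basement membrane attachment had a median of -0.003, with Itga3 at 0.04 (SE 0.16) and Itga6 at 0.08 (SE 0.11). Signals and factors of the limb ectoderm and its ridge had a median of 0.15 over 23 genes, 16 above and 7 below 0. Sp8, a ridge transcription factor and the most abundant of them, had 119.7 and 93.9 CPM (-0.32, SE 0.12, edgeR adjusted p 0.148), and Bambi had 28.7 and 33.1 CPM (0.15, SE 0.13, edgeR adjusted p 0.561).

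The turn between litter A and the others was seen in part in these lists. In litter D it was absent from the epithelial transcription, splicing and trafficking list. There 15 of the 26 genes were higher in mutants, with a median difference of 0.15. A difference above 0 in litter A and below 0 in litters B, C and D was found for 7 of the 10 members (Epcam, Cdh1, Krt14, Krt15, Krt18, Trp63 and Esrp1) and for 5.32% of all genes. The same order was found for 11 of 22 junction and adhesion genes, 3 of 6 other keratins and 6 of 23 ridge genes. It was also found for 3 of 12 basement membrane genes and 5 of 26 epithelial transcription, splicing and trafficking genes. It was found for 0 of 16 limb mesenchyme genes, 0 of 8 mesothelium genes and 0 of 9 blood vessel genes. This pattern was chosen after the values of the members were seen, and it carries no test.

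Markers of other tissues did not share the order of the members over the litters. All 9 blood vessel genes were lower in the mutants of litter A (median -0.38), and 7, 8 and 8 of the 9 were higher in the mutants of litters B, C and D, the reverse of the members. Their summed level was 217.8 to 337.2 CPM in controls and 213.2 to 330.5 CPM in mutants. Red cell genes were higher in mutants for 7, 9, 9 and 7 of 9 genes in the 4 litters, and haemoglobin genes held 1.34% to 3.3% of control reads and 1.69% to 5.44% of mutant reads. The limb mesenchyme list summed to 1229 to 1396 CPM in controls and 1184 to 1362 CPM in mutants, with Vim at -0.05 (SE 0.08) and Prrx1 at 0.00 (SE 0.09) on the log2 scale. The part of these tissues in the members' levels was not tested.

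Markers of other epithelia were at different levels. Neural tube markers summed to at most 1.13 CPM in any library, with Olig2 at 0 throughout. Nephric duct markers summed to 13.9 to 22.8 CPM, of which Emx2, also made in limb mesenchyme, was the most abundant at 14.6 CPM on average, and Pax2 reached at most 0.116 CPM. Endoderm markers summed to 4.71 to 41.9 CPM in controls and 4.77 to 49.9 CPM in mutants. Afp made up 29.3 CPM of the sum of 41.9 CPM in control 3, 39.2 of 49.9 CPM in mutant 2 and 9.06 of 16.5 CPM in control 2, while Nkx2-1 was at 0 in all libraries. Each of these 3 libraries was the highest for some members. Control 4, with Afp at 0.232 CPM, was the highest for Cdh1, Trp63, Esrp1 and Grhl2. The part of endoderm in the members' levels was not tested.

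How reads were assigned limits some members. In GENCODE M21 transcripts, 29.7% of the 50-base words of Krt8 also occur in another gene, mainly a Krt8 pseudogene, as do 13.9% of those of Krt14 (in Krt16 and Krt17) and 12.2% of those of Krt5 (mainly in Krt6a). For the other 7 genes the share was at most 1.23%. Counting did not use strand, and 5.87% of the exon bases of Krt5, 5.16% of Krt8, 2.01% of Esrp1 and 1.96% of Grhl2 also lie in a predicted gene. The levels of Krt8, Krt14 and Krt5 are therefore uncertain by an amount that was not measured and may differ between libraries. Of the genes that share words with them, Krt17 stood at 1.61 to 7.58 CPM, Krt6a reached at most 0.198 CPM and Krt16 had 0.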

How the data were processed

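The authors deposited 1 table of unnormalized counts, summed over the exons of each name with featureCounts 1.4.6-p4 on mm10 and GENCODE M9 with a mapping quality of at least 10, per the file headers, and aligned with STAR 2.5.4b, per the submitters' processing notes. The header sets no option for strand or multi-mapping reads. Of the sample columns, 11 were used and 0 left out. Genes were kept by filterByExpr and tested with edgeR 4.0.16 (R 4.3.3): TMM scaling, quasi-likelihood F test, two-sided, litter as a block, Benjamini-Hochberg adjustment over all 15821 genes, threshold 0.05. CPM are counts scaled by TMM-adjusted totals, log2 CPM has a prior count of 2, and RPKM is CPM per kilobase of the exon length in the deposited table. The tests were checked on simulated data. Correlations used 100000 permutations.

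Members and lists were chosen with earlier results of these data known. Genes named are Gmnn, the 10 members, list genes past the threshold or else the 2 most abundant of each list, and the 10 genes of mean CPM of at least 1 with the highest r with the members' mean, predicted genes and clone names left out. Markers at or near 0 in other lists, such as Msln, Pax2, Olig2, Nkx2-1, Krt6b and Krt16, were named after their values were seen. Lists were other keratins, junction and adhesion, basement membrane, epithelial regulators, ridge, mesenchyme, mesothelium, endoderm, nephric, neural tube, blood vessel and red cells. Of 5 members with a promoter entry, 4 were used, whose start lay within 100 bases of the deposited gene's start. T runs came from GENCODE M21 transcripts, for 15291 of the tested genes.

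Litter comes from the titles, and the design text speaks of matching by litter. Deviations from group means correlated by -0.16 to 0.37 (median 0.13) over 8 same-litter pairs and by -0.33 to 0.17 (median -0.02) over 22 others. No 2 libraries of a group were alike within sampling noise. Alternatives were other scalings and filters, DESeq2 1.42.0, limma-voom 3.58.1, no block, removal of abundant genes, a T-run covariate, and each library or litter left out.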

Additional observations from a re-analysis of the deposited data

Results flagged for a closer look

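Krt15 in control 3 lay apart from the other controls: it was 3.397 on the log2 CPM scale, or 10.4 CPM from 191 reads, where the other 4 controls had 3.75 to 4.24 CPM. Its gap to the next control was 0.88 of the range of the 5 controls, above Dixon's critical value of 0.71. The measures examined were the 10 members, Gmnn, the members' sum and the total count, in both genotypes. Of the 52 highest and lowest values, 1 was this far from the rest, and chance gives about 1.3. Control 3 was also the highest library for Krt5 and Krt14, and without it the log2 fold change of Krt15 was -0.98 in place of -0.87.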

How the results depend on the processing

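No member passed the threshold in 23 of 24 alternatives. Without the filter on low counts 3 did, all lower in mutants (Krt8 -0.42, Krt14 -0.45, Krt15 -0.87), with 3.3% of all genes lower, and there 7 members differed between litters and 6 in the interaction (5.41% and 1.5% of all genes); the cause was not tested. DESeq2 gave 1 and 2 for these, and 3 differed between litters without litter A and 0 or 1 when 1 library was left out. The interaction was not fitted where a litter lost a genotype, nor without the block or with the T-run covariate. Directions turned for Epcam (-0.28 without litter A, -0.36 with the T-run covariate), Krt5 (-0.26 and -0.11) and Cdh1 (0.004 without litter C). Leaving out 1 library gave -0.006 to 0.27 for Epcam, -0.36 to 0.003 for Cdh1 and -0.32 to 0.076 for Krt18. With the T-run covariate all 10 members were below 0 (median -0.66) and none passed. The covariate followed genotype in all libraries but control 5, so its fit is poorly determined. Over all genes, 345 calls became 1566 with no filter, 550 with 1 CPM in 5 libraries, 1194 with DESeq2, 2 with the covariate, 9, 3, 1 and 148 without litters A to D, and 1 to 850 without 1 library. Upper-quartile scaling raised the share of higher calls from 32.2% to 43.1%. Without litter as a replicate block 16 genes and 0 members passed, and the members' median was -0.29. Krt15 had 7 to 191 reads per library, so that its low values carry the widest counting error.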

Other observations

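En1, the transcription factor of ventral limb ectoderm, did not pass the threshold and was named after its values were seen. It was higher in mutants in all 4 litters, as 12.6% of all genes were, with differences of 1.13, 0.46, 0.12 and 0.50. In litter A, control 1 had 3.19 CPM and control 2 had 7.98 CPM. The mean of En1 was 6.36 CPM in controls and 9.90 CPM in mutants (log2 fold change 0.62, SE 0.23, edgeR adjusted p 0.152). Sp8, of the ridge and ectoderm, was lower in all 4 litters (-0.05, -0.46, -0.46 and -0.46), as 13.5% of all genes were. In litter A, where most members turned, its mean difference was small but its controls were unlike. Control 1 had 68.1 CPM and control 2 had 113.2 CPM, on either side of mutants 1 and 2 at 88.1 and 81.3 CPM.

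Afp and Ttr, genes of yolk sac and liver endoderm, stood far above the rest in a few libraries. Afp was 39.2 CPM in mutant 2, 29.3 CPM in control 3, 9.06 CPM in control 2 and 4.92 CPM in mutant 1, and at most 0.713 CPM in the other 7 libraries. Ttr, named after its values were seen, was 4.23, 5.67 and 2.99 CPM in the first 3 of these and 1.78 CPM or less elsewhere. Control 3 is the library highest in Krt5, Krt14 and Krt15, control 2 that highest in Krt8 and Krt18, and mutant 2 that highest in Epcam. Control 4 is the library highest in Cdh1, Trp63, Esrp1 and Grhl2, and it had Afp at 0.232 CPM and Ttr at 0.116 CPM. The part of such tissue in the members' levels was not tested.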
